A study of Mus musculus with 34 samples.

Results

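Drug-tolerant outgrowth under lonafarnib was compared between the mouse leukaemia lines 8093 and Bin-2, both pre-B acute lymphoblastic, as a difference of changes: the lonafarnib end minus start in Bin-2, minus the lonafarnib end minus start in 8093. The arrays were chosen by their titles, and 11 of the 34 arrays of the series belong to these 4 groups. They are 3 Bin-2 starts, 3 Bin-2 ends, 3 8093 starts and 2 8093 ends. Gene expression was measured on whole-transcript mouse arrays as log2 signal. In what follows "the line difference" is the Bin-2 change minus the 8093 change, and it is positive where Bin-2 rose more or fell less, and a difference of 1 is a 2-fold difference.

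Both lines came from leukaemias of BCR/ABL transgenic mice, Bin-2 with a mixed genetic background and 8093 inbred on C57Bl/6J, and each line is 1 leukaemia. All cells, starts included, were grown on irradiated mouse embryonic fibroblasts in medium with recombinant IL-3, and the loosely attached or floating cells were taken for RNA. 8093 received 1 µM lonafarnib and was sampled on day 0 and on day 26, and Bin-2 received 0.25 µM and was sampled on day 0 and on day 30. Viability had dropped to 20% on day 4 in 8093 and to 5 to 10% on day 3 in Bin-2, and was about 90% again at the end, with the drug still present. Replicates were separate plates of the same line, so the p-values measure the spread between plates. Line, genetic background, dose and length of treatment change together here and cannot be told apart. No untreated culture of matching age was part of this comparison, so time in culture and drug cannot be told apart either.

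Lonafarnib blocks farnesyltransferase. This enzyme adds a farnesyl group, a lipid, to a cysteine near the end of proteins such as Ras family members and nuclear lamins, and so affects where in the cell they sit. BCR/ABL is a tyrosine kinase that signals through Ras, STAT5 and PI3K. A pre-B cell rearranges its immunoglobulin genes with the RAG recombinase, adds bases at the joints with terminal transferase, and carries a pre-B cell receptor made with surrogate light chains.

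The arrays were alike in overall signal. The correlation of an array with the others of its group averaged between 0.991 and 0.995 in these 11 arrays. The second 8093 end array stood apart in macrophage marker genes, with a mean of 6.23 over 18 genes against 5.23 in the first, 4.95 to 5.00 in the 8093 starts, 5.57 to 5.94 in the Bin-2 starts and 6.02 to 6.55 in the Bin-2 ends. Lyz2, the lysozyme of macrophages and granulocytes, was at 7.12 in the first and 9.87 in the second. Pre-B markers were high throughout, with means over 30 genes between 8.34 and 8.78, and Igll1, a surrogate light chain gene, lay between 11.97 and 12.22 on every array.

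The lines ended the course with different gene expression changes. The line difference was called for 920 of 19938 genes (4.61%) at a Benjamini-Hochberg adjusted p below 0.05 in limma. It was positive in 423 (2.12%) and negative in 497 (2.49%), and 366 (1.84%) differed at least 2-fold. The single end arrays, each taken minus the mean start of its line, did not overlap between the lines in 8971 genes (45%). The median over all genes was 0.05. Without the second 8093 end array the call was made for 566 genes, of which 540 were among the 920, with 211 positive and 355 negative, and without the first for 632, of which 554 were among them, with 302 positive and 330 negative.

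In most called genes the own change of a single line was called. A change that was not called is not shown to be absent. Taken alone, Bin-2 had 929 genes that rose (4.66%) and 679 that fell (3.41%), and 8093 had 877 that rose (4.40%) and 860 that fell (4.31%). Of the 423 positive genes, 169 rose in Bin-2 with no call in 8093, 165 fell in 8093 with no call in Bin-2, and 36 rose in Bin-2 and fell in 8093. Of the 497 negative genes, 211 rose in 8093 with no call in Bin-2, 190 fell in Bin-2 with no call in 8093, and 47 moved in opposite directions. In 38 positive and 28 negative genes neither line's own change was called. The lines also had changes in common: 421 genes were called in both, or 26.2% of the Bin-2 calls and 24.2% of the 8093 calls, and 338 of the 421 moved in the same direction. Across all genes the changes of the lines had a Pearson r of 0.27, as a description of genes that are not independent of each other.

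**Figure D1:**
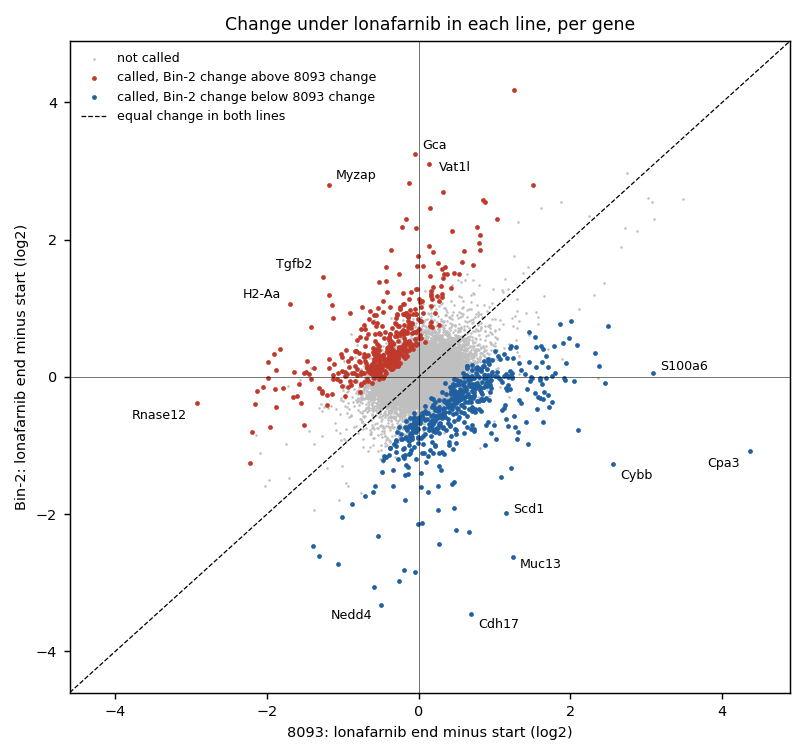
Change of each gene under lonafarnib, end minus start in log2 units, with 8093 on the horizontal and Bin-2 on the vertical axis; coloured points are the 920 genes with a called line difference. Cpa3 lies farthest to the side of 8093, where it rose by 4.37 while Bin-2 fell by 1.07, and Myzap lies where Bin-2 rose by 2.80 and 8093 fell by 1.19.

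Several of the largest positive differences were in genes that were low in Bin-2 at the start and rose there. Myzap encodes a protein of cell junctions that is best known from heart muscle. Its signal was 4.48, 4.59 and 4.54 at the Bin-2 start and 7.29, 7.37 and 7.37 at the Bin-2 end, and 7.29, 7.51 and 7.33 at the 8093 start and 6.08 and 6.30 at the 8093 end. The end arrays of Bin-2 reached the level of the 8093 starts, the 8093 ends were lower than their starts, and start and end did not overlap in either line. The line difference was 3.99 ± 0.16 (SE; adjusted p = 7.44e-17).

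Gca encodes grancalcin, a calcium-binding protein of blood cells. It read 3.51, 3.74 and 4.32 at the Bin-2 start and 7.38, 7.01 and 6.94 at the Bin-2 end, and 3.55, 3.32 and 3.62 at the 8093 start and 3.34 and 3.55 at the 8093 end. It came up in Bin-2 well above all other arrays, and the 8093 arrays overlapped, for a line difference of 3.30 ± 0.26 (adjusted p = 1.30e-09). The 8093 arrays lay below the lower quartile of signal, which was 3.78 to 3.91 over the arrays, where the size of a difference is uncertain. Eya1, a transcriptional co-factor and phosphatase of organ development, was at 4.66, 4.41 and 4.20 at the Bin-2 start and 7.26, 7.36 and 7.15 at the Bin-2 end, and 8.44, 8.12 and 8.22 at the 8093 start and 8.30 and 7.95 at the 8093 end. The Bin-2 ends stayed below the lowest 8093 array, and the line difference was 2.96 ± 0.34 (adjusted p = 6.00e-07).

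Vat1l read 6.06, 6.22 and 6.48 at the Bin-2 start and 9.60, 9.20 and 9.28 at the Bin-2 end, and 9.31, 9.18 and 8.92 at the 8093 start and 9.36 and 9.20 at the 8093 end, and its line difference was 2.97 ± 0.29 (adjusted p = 2.75e-08). The Bin-2 ends overlapped the 8093 arrays, which did not separate by time. Jchain, which joins immunoglobulin M and A into polymers, rose in Bin-2 by 2.69 with a change of 0.33 in 8093 that was not called (line difference 2.37 ± 0.17, adjusted p = 1.61e-10). Kirrel, an adhesion protein related to nephrin, rose in Bin-2 by 2.46 against 0.15 in 8093, not called (line difference 2.31 ± 0.20, adjusted p = 4.05e-09). Klhl7, a substrate adaptor of a cullin ubiquitin ligase, rose in Bin-2 by 2.30 against -0.17 in 8093, not called (line difference 2.47 ± 0.22, adjusted p = 9.75e-09). In Vat1l, Jchain, Kirrel and Klhl7 the mean of Bin-2 at the end minus that of 8093 at the end lay between -0.69 and 0.14, against -3.06 to -2.33 at the start. Mpzl2, an adhesion protein of the immunoglobulin family, rose in Bin-2 by 2.19 to a level above 8093, where the change of -0.22 was not called (line difference 2.41 ± 0.34, adjusted p = 1.68e-05).

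A further group of positive genes moved in opposite directions or fell in 8093. Tgfb2, a transforming growth factor beta ligand, read 4.72, 5.06 and 4.62 at the Bin-2 start and 6.11, 6.64 and 6.03 at the Bin-2 end, and 7.08, 7.12 and 7.10 at the 8093 start and 5.81 and 5.88 at the 8093 end. It rose in Bin-2 and fell in 8093, so that the mean of Bin-2 at the end was 0.42 above that of 8093, with a line difference of 2.72 ± 0.23 (adjusted p = 4.05e-09). Rragd, a GTPase that helps to bring mTORC1 to the lysosome, rose in Bin-2 by 1.20 and fell in 8093 by 1.18 (line difference 2.38 ± 0.21, adjusted p = 4.89e-09). Rnase12, of the ribonuclease A family, fell in 8093 by 2.93 and changed by -0.37 in Bin-2, not called (line difference 2.55 ± 0.29, adjusted p = 6.44e-07). Sertad4 fell in 8093 by 1.91 and changed by 0.34 in Bin-2, not called (line difference 2.24 ± 0.19, adjusted p = 2.39e-09).

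Adgre1, the macrophage surface protein F4/80, read 4.69, 4.75 and 4.57 at the Bin-2 start and 4.69, 5.39 and 5.15 at the Bin-2 end, and 7.25, 7.13 and 7.11 at the 8093 start and 4.9 and 5.76 at the 8093 end. Its 8093 ends lay apart from each other and below the starts, and its line difference of 2.24 ± 0.59 (adjusted p = 0.0227) was not called without the first 8093 end array (1.81, adjusted p = 0.159), without the third Bin-2 start (2.19, adjusted p = 0.0506) or without the second Bin-2 end (2.08, adjusted p = 0.0601).

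Cpa3 had the largest difference of all the genes named here. It encodes carboxypeptidase A3, a protease of mast cell granules. Its signal was 6.09, 6.30 and 6.26 at the Bin-2 start and 5.30, 5.43 and 4.70 at the Bin-2 end, and 4.67, 4.61 and 4.57 at the 8093 start and 9.0 and 8.98 at the 8093 end. Both 8093 ends were far above every other array, the Bin-2 ends were below the Bin-2 starts, and no groups overlapped within a line. The line difference was -5.45 ± 0.39 (adjusted p = 1.0e-10).

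Several of the other large negative differences came from genes that fell in Bin-2. Cdh17, a cadherin without a catenin-binding tail, read 9.52, 9.54 and 9.63 at the Bin-2 start and 6.02, 6.11 and 6.22 at the Bin-2 end, and 7.60, 7.16 and 7.53 at the 8093 start and 8.21 and 8.02 at the 8093 end. It fell in Bin-2 from above to below the 8093 level, and the 8093 change of 0.69 was not called. The line difference was -4.14 ± 0.42 (adjusted p = 8.11e-08). Muc13, a transmembrane mucin, read 9.17, 9.20 and 9.28 at the Bin-2 start and 6.61, 6.52 and 6.65 at the Bin-2 end, and 7.08, 7.24 and 6.94 at the 8093 start and 8.74 and 7.91 at the 8093 end. It fell in Bin-2 and rose in 8093, with no overlap of start and end in either line, and the line difference was -3.87 ± 0.22 (adjusted p = 9.68e-13).

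Nedd4, a ubiquitin ligase, read 9.81, 9.67 and 9.76 at the Bin-2 start and 6.52, 6.60 and 6.17 at the Bin-2 end, and 10.81, 10.86 and 10.78 at the 8093 start and 10.42 and 10.23 at the 8093 end. It was called lower at the end in both lines, where Bin-2 fell by 3.32 and 8093 fell by 0.50, and the line difference was -2.82 ± 0.19 (adjusted p = 2.74e-11). Scin, an actin-severing protein, fell in Bin-2 by 2.98 (line difference -2.71 ± 0.25, adjusted p = 1.46e-08). Trim2, a ubiquitin ligase best known from neurons, fell in Bin-2 by 2.84 (line difference -2.79 ± 0.25, adjusted p = 1.03e-08). Trf, the iron carrier transferrin, fell in Bin-2 by 2.23 (line difference -2.71 ± 0.28, adjusted p = 1.0e-07). Sh2d1b1, an adaptor of SLAM family receptors, fell in Bin-2 by 2.27 (line difference -2.93 ± 0.33, adjusted p = 4.38e-07). The 8093 changes of Scin, Trim2, Trf and Sh2d1b1 were not called and lay between -0.27 and 0.66.

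Scd1, stearoyl-CoA desaturase, makes monounsaturated fatty acids. It read 6.19, 6.38 and 7.32 at the Bin-2 start and 4.69, 4.58 and 4.65 at the Bin-2 end, and 8.78, 8.65 and 8.84 at the 8093 start and 10.13 and 9.69 at the 8093 end. It rose in 8093, where it was already the higher, and fell in Bin-2, with a line difference of -3.14 ± 0.36 (adjusted p = 6.13e-07). S100a6, a calcium-binding protein, was at 4.71, 5.40 and 4.29 at the Bin-2 start and 4.99, 4.76 and 4.80 at the Bin-2 end, and 5.17, 4.94 and 5.18 at the 8093 start and 8.06 and 8.30 at the 8093 end. Both 8093 ends were above all other arrays, which overlapped, and the line difference was -3.03 ± 0.46 (adjusted p = 5.53e-05). Cybb, the membrane subunit of the phagocyte NADPH oxidase, read 9.11, 9.23 and 9.31 at the Bin-2 start and 7.50, 8.15 and 8.18 at the Bin-2 end, and 5.58, 5.51 and 5.48 at the 8093 start and 7.88 and 8.29 at the 8093 end. The ends of the lines overlapped after starts that lay far apart, and the line difference was -3.84 ± 0.52 (adjusted p = 1.28e-05). The macrophage marker list, which holds Cybb and Adgre1, had 1 positive and 1 negative call among its 18 measured genes (11.1% against 4.61% of all genes). Its median line difference of -0.18 was -0.70 without the first and 0.29 without the second 8093 end array, so its sign rests on 1 array. The part of macrophage RNA in these results was not tested.

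Timp3, an inhibitor of matrix metalloproteinases, rose in 8093 by 2.10 and fell in Bin-2 by 0.77 (line difference -2.87 ± 0.23, adjusted p = 1.45e-09). Thbs1, the matrix protein thrombospondin, fell in Bin-2 by 2.81 with a change of -0.20 in 8093, not called (line difference -2.61 ± 0.46, adjusted p = 0.000416). Both are also on the list of fibroblast markers, the cell type of the feeder layer. The mean of that list over 30 genes was 5.15 on both 8093 ends against 5.14 to 5.25 at the start, and 4.95 to 5.03 on the Bin-2 ends against 5.13 to 5.26 at the start. It had 1 positive and 2 negative calls (10% against 4.61% of all genes) with a median line difference of -0.04, and the part of feeder RNA was not tested. The positive call was Thy1, a surface glycoprotein of fibroblasts and lymphocytes, which fell by 1.26 in Bin-2 and fell by 2.22 in 8093.

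**Figure D2:**
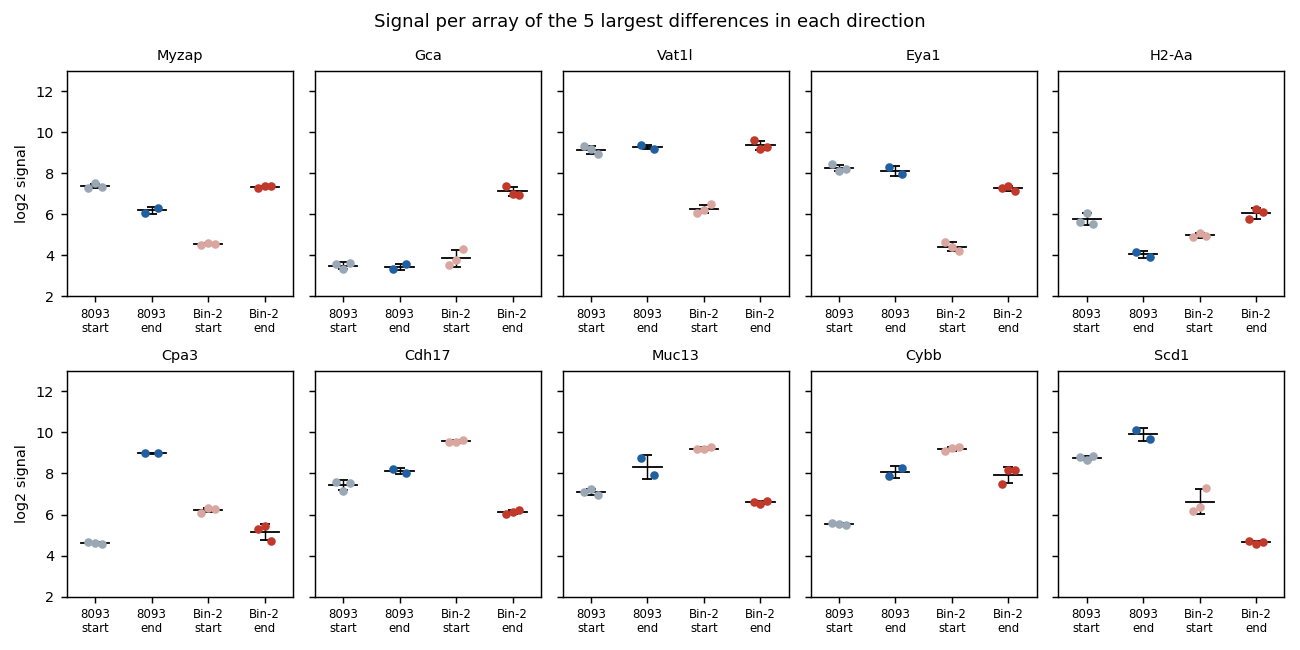
Log2 signal of each array (points), with group mean and SD (bars), for the 5 named genes with the largest positive (top row) and negative (bottom row) line difference; n = 3 arrays per group and 2 for the 8093 end. Vat1l reached the 8093 level in the Bin-2 ends, and Cpa3 lay near 9.0 in the 8093 ends and at no more than 6.30 in every other array.

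Genes of the mast cell and granulocyte list were called in the negative direction or not at all. Of 22 measured genes, 7 had a negative and 0 a positive line difference in limma (8 and 0 at an unadjusted p below 0.05). The share of all genes below that unadjusted p was not counted, so such counts have no background here or for the other lists. This and the other gene lists were chosen with earlier results of these data known, so shares called describe a list and do not test it. In the mast cell and granulocyte list the share called was 31.8% against 4.61% of all genes, and the median was -0.68 against 0.05 over all genes. The members called were Cpa3, Kit, Fcer1a, Ctsg, Cma1, Tpsb2 and Mcpt8, and without the second 8093 end array 5 of the 22 were called and the median was -0.43. The mean level over the list was 4.59 and 4.69 in the 8093 ends, above 3.93 to 4.07 in their starts, and 4.15 to 4.20 in the Bin-2 ends, below 4.40 to 4.58 in theirs. Because these are bulk samples, a change in the number of cells of a type and a change in RNA per cell cannot be told apart.

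The called members fell into those that came up in 8093 and those that went down in Bin-2. Fcer1a, the alpha chain of the high-affinity IgE receptor of mast cells and basophils, was at 3.37, 3.81 and 3.29 at the Bin-2 start and 3.61, 3.66 and 2.92 at the Bin-2 end, and 2.83, 3.10 and 3.6 at the 8093 start and 5.69 and 5.59 at the 8093 end. Both 8093 ends were above every other array (line difference -2.55 ± 0.52, adjusted p = 0.00251). The other groups lay around or below the lower quartile of signal, as did those of Cma1, so the sizes of these differences are uncertain. Cma1, mast cell chymase, rose in 8093 by 1.60 with a change of -0.01 in Bin-2, not called (line difference -1.61 ± 0.36, adjusted p = 0.00491). Tpsb2, a mast cell tryptase, rose in 8093 by 1.43 with a change of -0.18 in Bin-2, not called (line difference -1.61 ± 0.35, adjusted p = 0.00457). Without the second 8093 end array neither was called, at -1.32 for Cma1 (adjusted p = 0.0818) and -1.44 for Tpsb2 (adjusted p = 0.0518).

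Kit, the receptor for stem cell factor, read 7.66, 7.77 and 7.37 at the Bin-2 start and 5.22, 5.10 and 5.17 at the Bin-2 end, and 5.67, 5.75 and 5.65 at the 8093 start and 5.88 and 6.03 at the 8093 end. It fell in Bin-2 from above to below the 8093 level, and the 8093 change of 0.26 was not called (line difference -2.70 ± 0.27, adjusted p = 4.39e-08). Ctsg, the granule protease cathepsin G, fell in Bin-2 by 1.94 with a change of 0.25 in 8093, not called (line difference -2.19 ± 0.35, adjusted p = 0.000123). Mcpt8, a basophil protease, fell in Bin-2 by 0.96 with a change of 0.50 in 8093, not called (line difference -1.46 ± 0.29, adjusted p = 0.00162). Ms4a2, the beta chain of the IgE receptor, rose in 8093 by 1.45 and had a line difference of -0.84 ± 0.49, not called (adjusted p = 0.432). Hdc, which makes histamine, had a line difference of 0.06 ± 0.30, and Mpo, the peroxidase of neutrophil granules, of 0.45 ± 0.26, neither of them called.

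Pre-B genes were called in both directions. Of 30 measured, 6 had a positive line difference (Rag2, Rag1, Spib, Foxo1, Cd79a and Lef1) and 4 a negative one (Dntt, Ikzf3, Blnk and Cd72). The share called was 33.3% against 4.61% of all genes, and the median was 0.30. Without the first 8093 end array 3 were positive and 3 negative. Rag1, a subunit of the RAG recombinase, was at 9.24, 9.0 and 9.10 at the Bin-2 start and 8.97, 8.90 and 8.87 at the Bin-2 end, and 8.91, 9.15 and 8.87 at the 8093 start and 6.62 and 7.08 at the 8093 end. It fell in 8093 to below every other array, while the Bin-2 ends lay just below the Bin-2 starts, a change of -0.20 that was not called. The line difference was 1.93 ± 0.32 (adjusted p = 0.000188). Rag2, its partner, read 6.80, 6.82 and 6.97 at the Bin-2 start and 7.21, 6.93 and 6.42 at the Bin-2 end, and 6.49, 6.40 and 6.00 at the 8093 start and 4.01 and 4.59 at the 8093 end. Again both 8093 ends were the lowest arrays and the Bin-2 groups overlapped, and the line difference was 1.98 ± 0.34 (adjusted p = 0.000283).

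Dntt, terminal transferase, went the other way. It read 11.16, 10.87 and 10.89 at the Bin-2 start and 11.18, 11.15 and 11.08 at the Bin-2 end, and 8.0, 8.04 and 7.78 at the 8093 start and 10.48 and 10.17 at the 8093 end. It rose in 8093 to a level still below the Bin-2 arrays, and the change of 0.16 in Bin-2 was not called (line difference -2.22 ± 0.27, adjusted p = 2.61e-06). Blnk, the adaptor that couples the pre-B cell receptor to its downstream kinases, read 9.52, 9.61 and 9.55 at the Bin-2 start and 9.81, 9.76 and 9.75 at the Bin-2 end, and 4.40, 4.32 and 4.48 at the 8093 start and 5.60 and 5.85 at the 8093 end. It rose in 8093 to a level that stayed more than 3 log2 units below every Bin-2 array (line difference -1.11 ± 0.20, adjusted p = 0.000422). Ikzf3, the lymphoid transcription factor Aiolos, rose in 8093 by 0.92. Its line difference of -1.26 ± 0.33 (adjusted p = 0.0197) was not called without the first 8093 start (-1.20, adjusted p = 0.0509), the first or second 8093 end (-1.22, adjusted p = 0.0807, and -1.29, adjusted p = 0.0697), the third Bin-2 start (-1.20, adjusted p = 0.0517) or the third Bin-2 end (-1.20, adjusted p = 0.0514).

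Spib, an ETS family transcription factor of B cells, rose in Bin-2 by 0.64 and fell in 8093 by 0.53 (line difference 1.17 ± 0.20, adjusted p = 0.000378). Foxo1, a transcription factor needed for Rag gene expression, rose in Bin-2 by 0.72 (line difference 0.86 ± 0.20, adjusted p = 0.0084), and was not called without the first 8093 end array (0.81, adjusted p = 0.0584). Cd79a, a signalling chain of the B cell receptor, rose in Bin-2 by 0.52, and its line difference of 0.65 ± 0.18 was lost without any 8093 start (0.64 to 0.65), either 8093 end (0.71 and 0.58), the third Bin-2 start (0.58) or the third Bin-2 end (0.63). Lef1, a transcription factor of lymphoid progenitors, had a line difference of 0.65 ± 0.18, which was lost without the third 8093 start (0.61), the first 8093 end (0.56), the first Bin-2 start (0.59), or the first or the third Bin-2 end (0.66 and 0.59). Cd72, a B cell surface co-receptor, fell in Bin-2 by 0.98 (line difference -1.04 ± 0.19, adjusted p = 0.000772). Pax5, the factor that keeps B lineage identity, had a line difference of 0.45 ± 0.28 (adjusted p = 0.488), Ebf1, an early B cell factor, 0.21 ± 0.20 (adjusted p = 0.697) and Igll1 0.25 ± 0.19 (adjusted p = 0.599), none of them called.

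**Figure D3:**
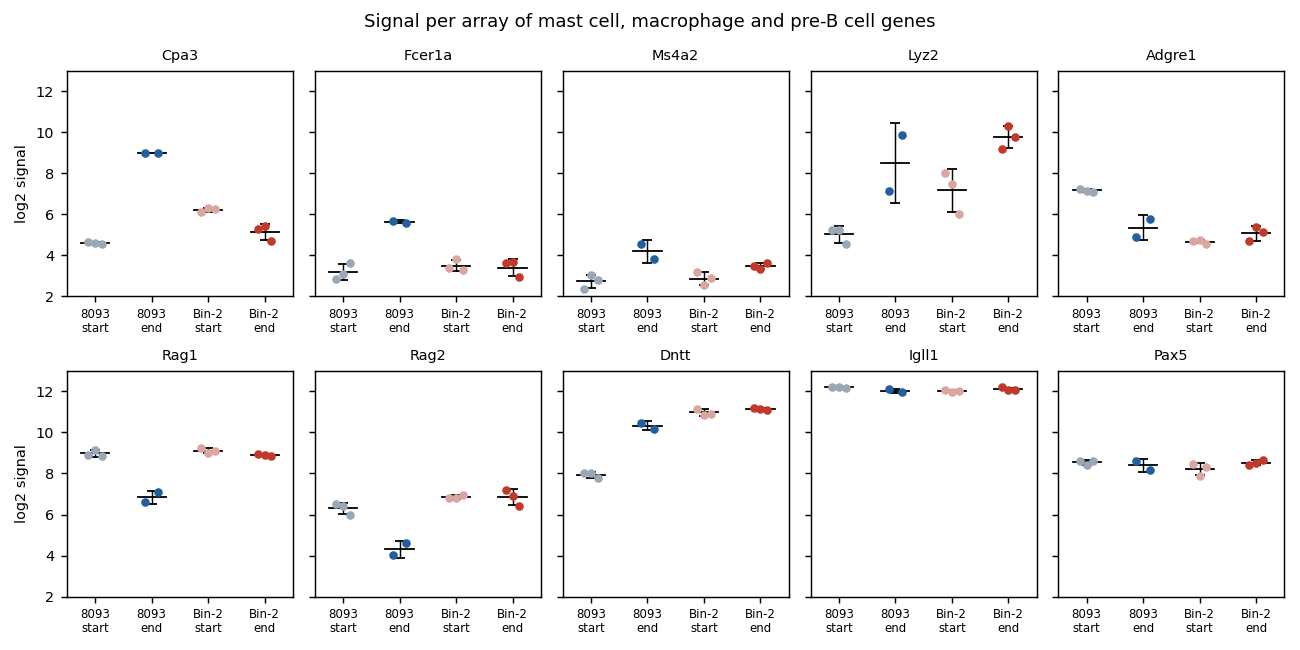
Log2 signal of each array (points), with group mean and SD (bars), for mast cell genes (Cpa3, Fcer1a and Ms4a2), macrophage genes (Lyz2 and Adgre1) and pre-B genes (Rag1, Rag2, Dntt, Igll1 and Pax5); n = 3 arrays per group and 2 for the 8093 end. Rag1 and Rag2 were lowest and Cpa3, Fcer1a and Ms4a2 highest in the 8093 ends, while Igll1 stayed between 11.97 and 12.22.

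Promoters of Cpa3 and Fcer1a, which rose together in 8093, and of Rag1 and Dntt, which moved apart there, are shown as the 250 bases before the gene start in the direction of transcription, from RefSeq on GRCm38.p6. The coordinates are chr3:20242182-20242431 on the minus strand for Cpa3, chr1:173227230-173227479 on the minus strand for Fcer1a, chr2:101649533-101649782 on the minus strand for Rag1 and chr19:41029025-41029274 on the plus strand for Dntt. Capitals mark matches on either strand. The letters searched for GATA factors were AGATAA. The variant with another first letter, TGATAA, was searched as well. E-box proteins were represented by CAGNTG, EBF1 by CCCNNGGG and STAT factors by TTCNNNGAA. The core promoter box was searched as TATAAA.
Cpa3: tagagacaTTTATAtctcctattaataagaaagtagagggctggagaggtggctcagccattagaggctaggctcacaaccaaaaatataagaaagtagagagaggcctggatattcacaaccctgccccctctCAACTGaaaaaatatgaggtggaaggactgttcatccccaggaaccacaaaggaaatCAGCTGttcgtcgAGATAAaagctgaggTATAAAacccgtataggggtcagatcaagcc
Fcer1a: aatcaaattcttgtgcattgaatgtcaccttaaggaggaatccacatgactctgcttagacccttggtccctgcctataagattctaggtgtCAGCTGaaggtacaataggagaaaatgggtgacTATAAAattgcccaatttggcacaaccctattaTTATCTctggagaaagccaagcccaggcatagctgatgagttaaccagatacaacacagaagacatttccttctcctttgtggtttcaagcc
Rag1: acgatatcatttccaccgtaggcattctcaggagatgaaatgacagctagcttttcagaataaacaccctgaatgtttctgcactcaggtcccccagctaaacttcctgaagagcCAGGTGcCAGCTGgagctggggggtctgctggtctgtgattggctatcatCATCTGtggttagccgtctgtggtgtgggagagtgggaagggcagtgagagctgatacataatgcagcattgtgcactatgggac
Dntt: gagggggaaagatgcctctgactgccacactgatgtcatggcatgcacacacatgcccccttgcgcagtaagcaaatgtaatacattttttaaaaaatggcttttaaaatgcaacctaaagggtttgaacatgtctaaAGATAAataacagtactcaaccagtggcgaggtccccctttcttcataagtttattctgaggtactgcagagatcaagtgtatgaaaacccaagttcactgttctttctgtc

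The motifs were chosen after the sequences had been seen, and a match is a description of letters. Cpa3 held AGATAA at -46 to -41 and TATAAA at -31 to -26, counted from the gene start, besides a pair of CAGNTG matches at -116 and -59 and a TATAAA match at -242. Fcer1a held CAGNTG at -158, TATAAA at -125 and AGATAA at -92. Rag1 held CAGNTG 3 times, at -135, -128 and -85, and Dntt held AGATAA at -112. Of 32851 promoters of the same length 9.99% held AGATAA, 7.94% TGATAA, 44.8% CAGNTG, 11.8% CCCNNGGG, 7.02% TTCNNNGAA and 12.4% TATAAA. Of the called mast cell and granulocyte genes 6 of 7 had a promoter sequence. Of those 6, 2 held AGATAA, 5 CAGNTG, 3 TATAAA, 1 CCCNNGGG, 1 TTCNNNGAA and 0 TGATAA. Of the called pre-B genes 9 of 10 had one, and 1 of those 9 held AGATAA, 5 CAGNTG, 2 CCCNNGGG and 0 any other motif.

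GIMAP genes, which encode GTPases of lymphocyte survival, mostly rose in 8093. Of 8 measured, 5 had a negative line difference and 0 a positive one in limma (the same counts at an unadjusted p below 0.05). The share called was 62.5% against 4.61% of all genes. The median was -0.75, and 6 rose in 8093 while 2 rose and 2 fell in Bin-2. Over all genes 4.40% rose in 8093, and 4.66% rose and 3.41% fell in Bin-2. Without the first 8093 end array 2 of the 8 had a called line difference, the calls of Gimap5, Gimap6 and Gimap8 being lost at -0.70, -0.74 and -0.71, and that of Gimap5 was also lost without the first 8093 start (-0.70), the second 8093 end (-0.76), the third Bin-2 start (-0.54) or the second Bin-2 end (-0.68), and with only the 11 arrays in the model (-0.73, adjusted p = 0.0821). Gimap4 was at 11.15, 11.19 and 11.41 at the Bin-2 start and 10.89, 10.70 and 10.76 at the Bin-2 end, and 9.32, 9.24 and 9.04 at the 8093 start and 10.83 and 10.67 at the 8093 end. It rose in 8093 and fell in Bin-2, so that the ends of the lines overlapped (line difference -2.02 ± 0.18, adjusted p = 7.61e-09). Gimap7 rose in 8093 by 1.44 and fell in Bin-2 by 0.97 (line difference -2.41 ± 0.24, adjusted p = 3.61e-08). Gimap3 rose in both lines, by 2.55 in Bin-2 and 3.07 in 8093, and its line difference of -0.52 ± 0.39 was not called (adjusted p = 0.588).

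MHC class II genes, which present antigen on B cells and on macrophages, had 2 positive and 1 negative call among 9 measured. The share called was 33.3% against 4.61% of all genes, and the median was 0.71. With only the 11 arrays of the 4 groups in the model 5 were positive, as at an unadjusted p below 0.05. H2-Aa, an alpha chain, read 4.88, 5.11 and 4.93 at the Bin-2 start and 5.75, 6.27 and 6.10 at the Bin-2 end, and 5.61, 6.08 and 5.54 at the 8093 start and 4.17 and 3.93 at the 8093 end. It rose in Bin-2 and fell in 8093, with no overlap of start and end in either line (line difference 2.76 ± 0.46, adjusted p = 0.000249). H2-Ab1, the beta chain that pairs with it, fell in 8093 by 1.38 with a change of 0.13 in Bin-2, not called. Its line difference of 1.5 ± 0.36 (adjusted p = 0.00929) was not called without the second 8093 end array (1.16, adjusted p = 0.145). H2-Ob, a chain of the peptide-loading inhibitor H2-O, rose in 8093 by 0.95, and its line difference of -1.0 ± 0.20 (adjusted p = 0.00225) was not called without the first 8093 end array (-0.66, adjusted p = 0.0703).

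Targets of p53 were called more often in the negative direction. Of 23 measured, 7 had a negative line difference and 1 a positive one (34.8% called against 4.61% of all genes), and 15 were not called. Cdkn1a and Mdm2, also written into this list, were not among the called members. The median line difference was -0.26, and the median change was 0.33 in 8093 and -0.10 in Bin-2. Psrc1, a spindle protein, read 6.47, 6.42 and 6.23 at the Bin-2 start and 5.93, 5.58 and 5.90 at the Bin-2 end, and 7.19, 7.31 and 7.19 at the 8093 start and 8.5 and 8.46 at the 8093 end. It rose in 8093 and fell in Bin-2 without overlap of start and end (line difference -1.82 ± 0.20, adjusted p = 4.43e-07). Eda2r, an ectodysplasin receptor of the TNF receptor family, was at 4.01, 3.77 and 3.70 at the Bin-2 start and 3.52, 3.44 and 3.5 at the Bin-2 end, and 3.97, 3.61 and 3.82 at the 8093 start and 5.06 and 5.17 at the 8093 end. Both 8093 ends were above all other arrays (line difference -1.66 ± 0.27, adjusted p = 0.000131), and the others lay around or below the lower quartile of signal. Tnfrsf10b, the death receptor for TRAIL, rose in 8093 by 0.91 and fell in Bin-2 by 0.66 (line difference -1.57 ± 0.25, adjusted p = 0.000103).

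Zmat3, an RNA-binding growth regulator, rose in 8093 by 0.89 (line difference -0.99 ± 0.18, adjusted p = 0.000629), and Ccng1, cyclin G1, rose there by 0.76 (line difference -0.88 ± 0.17, adjusted p = 0.00133). Plk2, a polo-like kinase, fell in Bin-2 by 0.79 (line difference -1.02 ± 0.26, adjusted p = 0.0162), a call lost without the second 8093 start (-0.93), the first 8093 end (-0.85) or the first Bin-2 start (-0.84). Phlda3, an inhibitor of AKT, had a line difference of -0.92 ± 0.25 (adjusted p = 0.025) with neither line's own change called, and was lost without the second 8093 start (-0.83), either 8093 end (-0.83 and -1.01), the second Bin-2 start (-0.89) or the first Bin-2 end (-0.88), and with quantile normalization (-0.84). The positive member was Btg2, an antiproliferative gene, which rose in Bin-2 by 1.22 (line difference 1.43 ± 0.26, adjusted p = 0.000683).

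Genes of the drug's own pathway were called singly. Of 25 genes of farnesylated proteins, 1 had a positive and 3 a negative line difference (16% against 4.61% of all genes), with a median of -0.02. Ptp4a3, the phosphatase PRL-3, read 8.12, 8.30 and 8.27 at the Bin-2 start and 8.35, 8.36 and 8.33 at the Bin-2 end, and 8.03, 7.94 and 8.16 at the 8093 start and 8.85 and 9.04 at the 8093 end. It rose in 8093, where both ends were above all other arrays (line difference -0.78 ± 0.15, adjusted p = 0.00159). Pex19, a chaperone of peroxisome membrane proteins, rose in Bin-2 by 0.74 (line difference 1.0 ± 0.19, adjusted p = 0.00118). Rasd1, a Ras-like protein, had a line difference of -0.86 ± 0.23 (adjusted p = 0.0217), which was not called without the first or the third 8093 start (-0.83 each), the second 8093 end (-0.76), the second Bin-2 start (-0.75) or the third Bin-2 end (-0.63), or with only the 11 arrays in the model (-0.86, adjusted p = 0.111).

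Of 12 genes of the prenylation machinery none was called at an adjusted p below 0.05 in limma, and 3 were below 0.05 before adjustment. The subunits of farnesyltransferase, Fnta and Fntb, had line differences of 0.03 ± 0.20 and 0.13 ± 0.19 (adjusted p = 0.973 and 0.836), and their arrays overlapped between groups. Of 20 cholesterol synthesis genes, whose pathway also supplies the farnesyl group, 1 was called (5% against 4.61% of all genes). This was Tm7sf2, a sterol reductase, which rose in 8093 by 1.09 with a change of -0.08 in Bin-2, not called (line difference -1.17 ± 0.16, adjusted p = 1.90e-05). The list's median line difference was -0.23, and it was -0.11 without the first 8093 end array.

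Kinase feedback and cytokine genes moved singly. The share called was 14.3% of the ERK feedback list, against 4.61% of all genes. Of 21 ERK feedback genes 3 had a negative line difference (Ccnd1, Spry4 and Spry1) and 0 a positive one in limma (7 and 1 at an unadjusted p below 0.05), and without the first 8093 end array 1 was called. Ccnd1, cyclin D1, which drives entry into S phase, read 8.15, 7.93 and 7.90 at the Bin-2 start and 7.89, 7.96 and 8.06 at the Bin-2 end, and 7.40, 7.41 and 7.01 at the 8093 start and 9.32 and 9.07 at the 8093 end. Both 8093 ends were above all other arrays, and the Bin-2 groups overlapped (line difference -1.94 ± 0.26, adjusted p = 1.01e-05). Spry4 and Spry1, Sprouty inhibitors of ERK signalling, fell in Bin-2 by 0.64 and 0.74, with line differences of -0.86 ± 0.25 and -0.68 ± 0.18. The call of Spry4 was lost without any single array of these groups other than the second Bin-2 end (-0.78 to -0.95), and that of Spry1 without the second or the third 8093 start (-0.65 and -0.63), the first 8093 end (-0.59), the first or the third Bin-2 start (-0.62 and -0.67) or the third Bin-2 end (-0.54). Both were also lost with quantile normalization (-0.78 and -0.63).

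The STAT5 feedback and cytokine receptor list had 2 positive calls, Socs2 and Socs1, and 1 negative, Il2ra, among 18. The share called was 16.7% against 4.61% of all genes, and the median was 0.18. Other settings that kept both 8093 end arrays gave 1 to 6 positive calls, and 8 were positive at an unadjusted p below 0.05 in limma. The list median was 0.25 without the first and 0.29 without the second 8093 end array. Socs2, a suppressor of cytokine signalling, rose in Bin-2 by 0.64 (line difference 0.80 ± 0.17, adjusted p = 0.00423), and was not called without the second 8093 end array (0.71, adjusted p = 0.0505). Socs1, of the same family, fell in 8093 by 0.62, and its line difference of 0.68 ± 0.20 was lost without the first or the third 8093 start (0.70 and 0.62), either 8093 end (0.64 and 0.73), the second or the third Bin-2 start (0.71 and 0.63) or the third Bin-2 end (0.56), and with quantile normalization (0.64). Il2ra, the alpha chain of the interleukin-2 receptor, fell in Bin-2 by 1.10, and its line difference of -0.99 ± 0.24 (adjusted p = 0.0129) was not called without the first 8093 end array (-0.86, adjusted p = 0.0974). Among 17 exchange factors and GTPase-activating proteins of Ras 1 had a positive and 2 a negative line difference (17.6% against 4.61% of all genes). Rasgrp4, an exchange factor of mast cells and myeloid cells, rose in Bin-2 by 1.61 (line difference 1.26 ± 0.28, adjusted p = 0.00576), and Nf1, neurofibromin, which switches Ras off, fell in Bin-2 by 0.63 (line difference -0.82 ± 0.19, adjusted p = 0.00635). Rasgrp2, another exchange factor, rose in 8093 by 0.92, and its line difference of -0.74 ± 0.18 (adjusted p = 0.0113) was not called without the second 8093 end array (-0.60, adjusted p = 0.136). Abl1, whose probes could also read the transgene where sequence is shared, had a line difference of 0.44 ± 0.14, not called (adjusted p = 0.0615).

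Few genes of drug efflux, cell death and lysosomes were called, and those were positive. Of 17 ABC transporters 2 were called (11.8% against 4.61% of all genes), both positive. The list median was -0.03, and 8 of the 17 had a line difference above 0. Abcg2, a multidrug efflux pump, was at 4.86, 4.94 and 4.93 at the Bin-2 start and 6.98, 6.76 and 6.71 at the Bin-2 end, and 5.13, 5.26 and 5.04 at the 8093 start and 5.15 and 5.42 at the 8093 end. The Bin-2 ends were above all other arrays (line difference 1.77 ± 0.26, adjusted p = 3.52e-05). Abcg1, a cholesterol exporter, rose in Bin-2 by 0.53 and fell in 8093 by 0.39 (line difference 0.93 ± 0.16, adjusted p = 0.000457).

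Of 14 BCL2 family genes 2 were called (14.3% against 4.61% of all genes), both positive. The list median was -0.13, and 0.018 without the first 8093 end array, and 5 of the 14 had a line difference above 0. Bcl2l11, which encodes the pro-apoptotic protein BIM, read 7.82, 7.67 and 7.70 at the Bin-2 start and 8.60, 8.41 and 8.41 at the Bin-2 end, and 8.89, 9.11 and 8.95 at the 8093 start and 8.42 and 8.42 at the 8093 end. It rose in Bin-2 and fell in 8093, and the ends of the lines overlapped (line difference 1.30 ± 0.19, adjusted p = 2.72e-05). Bmf, another pro-apoptotic member, had a line difference of 0.68 ± 0.18 (adjusted p = 0.0252), which was not called without the second 8093 end array (0.49, adjusted p = 0.288) or without the second or the third 8093 start (0.67 and 0.68), the second Bin-2 start (0.67), or the first or the third Bin-2 end (0.67 and 0.62).

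Of 25 lysosome and autophagy genes 3 were called (12% against 4.61% of all genes), all positive. The median was 0.27, and 8 rose in Bin-2 against 2 in 8093. Over all genes 4.66% rose in Bin-2 and 4.40% in 8093. Hexa, a lysosomal hexosaminidase, read 7.49, 7.21 and 7.22 at the Bin-2 start and 8.07, 8.37 and 8.29 at the Bin-2 end, and 7.85, 7.90 and 7.80 at the 8093 start and 6.83 and 7.05 at the 8093 end. It rose in Bin-2 and fell in 8093 without overlap of start and end (line difference 1.85 ± 0.32, adjusted p = 0.000386). Ctsl, the protease cathepsin L, rose in Bin-2 by 2.18 (line difference 2.21 ± 0.52, adjusted p = 0.00944), and was not called without the first 8093 end array (2.02, adjusted p = 0.0700). Sqstm1, the autophagy receptor p62, rose in Bin-2 by 0.48, and its line difference of 0.85 ± 0.20 was lost without the second 8093 end array (0.70, adjusted p = 0.102). Macrophages are rich in such genes, and their marker levels are given above. Among galectins, Lgals9 fell in Bin-2 by 1.16 (line difference -1.28 ± 0.15, adjusted p = 1.15e-06), and Lgals3 rose in Bin-2 by 1.27 with a line difference of 1.09 ± 0.52 that was not called (adjusted p = 0.293).

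Of 23 adhesion and homing genes 2 were called (8.7% against 4.61% of all genes), both negative, with a median of -0.03. Itga6, the alpha 6 integrin chain, which binds laminin, read 6.85, 6.95 and 7.13 at the Bin-2 start and 4.9, 5.05 and 5.24 at the Bin-2 end, and 7.18, 6.93 and 6.87 at the 8093 start and 7.57 and 7.37 at the 8093 end. It fell in Bin-2 to below every other array, and the 8093 change of 0.47 was not called (line difference -2.38 ± 0.21, adjusted p = 4.05e-09). Itga4, the alpha 4 chain, which binds VCAM1 on stromal cells, fell in Bin-2 by 0.78 (line difference -1.14 ± 0.16, adjusted p = 1.52e-05). Lin28b, a fetal progenitor RNA-binding protein, fell in 8093 by 1.56 with a change of -0.38 in Bin-2, not called (line difference 1.18 ± 0.24, adjusted p = 0.00192). 

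Of 16 NRF2 targets and metallothioneins, which answer oxidative and metal stress, 2 were positive and 2 negative (25% called against 4.61% of all genes). The median was 0.13, and it was -0.10 without the first 8093 end array. Gstm1, a glutathione transferase, fell in 8093 by 1.47 with a change of 0.23 in Bin-2, not called (line difference 1.70 ± 0.38, adjusted p = 0.00562). The other three calls were each lost without several single arrays. Ftl1, the ferritin light chain, had a line difference of 0.91 ± 0.25, which was 0.79 (adjusted p = 0.158) without the first 8093 end array. Fth1, the ferritin heavy chain, had -0.59 ± 0.17, which was -0.59 without the second 8093 end array (adjusted p = 0.130). Gstm5, another glutathione transferase, had -0.86 ± 0.23, which was -0.72 without that array (adjusted p = 0.203), and its arrays other than the 8093 ends lay below the lower quartile of signal.

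Growth genes gave no called line difference. None of 25 mitosis, 30 DNA replication and 27 ribosome biogenesis genes was called in limma, against 4.61% of all genes. Their medians were 0.09, 0.04 and -0.04. At an unadjusted p below 0.05 in limma there were 7, 1 and 5, with no count over all genes to set beside them. In DNA replication 7 genes fell in each line and 0 rose. In mitosis 1 fell in Bin-2 and 6 in 8093. Over all genes 3.41% fell in Bin-2 and 4.31% in 8093. In oxidative phosphorylation 8 of 24 fell in 8093 and 0 in Bin-2, with a median line difference of 0.20 that was 0.12 without the second 8093 end array. The line difference was called in 4.17% of that list, against 4.61% of all genes. The 1 positive call was Cox6c, a subunit of cytochrome c oxidase, and it was lost without the first (0.68, adjusted p = 0.0698) or the second 8093 end array (0.60, adjusted p = 0.154), among other single arrays, and with the starts of both courses as baseline (0.46, adjusted p = 0.0802). No interferon-stimulated gene of 21 was called in limma, with 5 below 0.05 before adjustment and a median of -0.19.

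**Figure D4:**
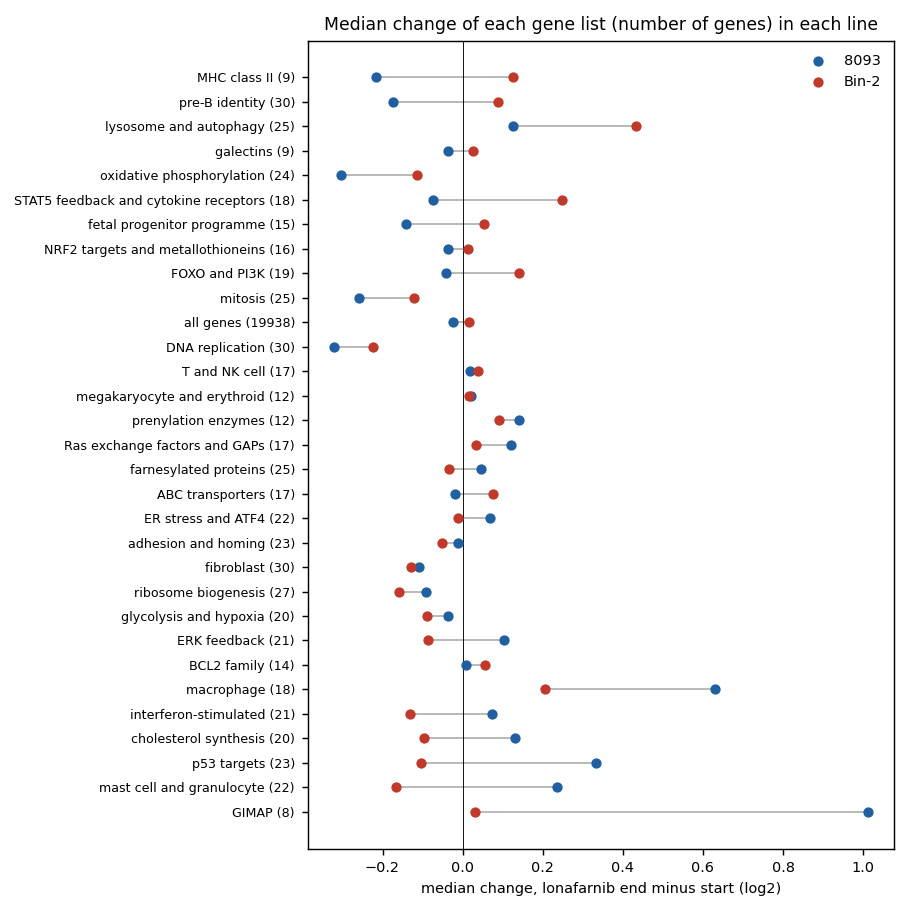
Median change from start to end, in log2 units, of each gene list in 8093 (blue) and Bin-2 (red), ordered by the median line difference, with the number of measured genes in parentheses. The GIMAP list lies farthest apart, at 1.01 in 8093 and 0.03 in Bin-2, and the DNA replication list is below 0 in both lines.

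The called genes were compared with the gap between the lines before any drug. That gap was measured in the starts of the nilotinib course, 6 arrays that do not enter the line difference. Of the 423 positive genes, 311 (73.5%) were lower in Bin-2 than in 8093 before drug, and 169 (40.0%) were called lower and 20 higher. Of the 497 negative genes, 359 (72.2%) were higher in Bin-2, and 195 (39.2%) were called higher and 33 lower. Over all genes 53.3% were lower in Bin-2, 5.01% were called lower and 5.79% called higher. Without the second 8093 end array the first count was 112 of 211 (53.1%), and without the first the other was 129 of 330 (39.1%).

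Among all genes with a called gap, 208 of 999 higher in 8093 fell there (20.8%) and 190 of 1154 higher in Bin-2 fell there (16.5%). Over all genes 4.31% fell in 8093 and 3.41% in Bin-2. Both shares that fell were larger at a gap of at least 2 log2 units. Of 54 genes at least 2 higher in 8093 before drug, 25 fell in 8093 (46.3%), 15 rose in Bin-2 (27.8%), 27 had a positive line difference and 1 a negative one. The other way, 6 rose in 8093 (11.1%) and 4 fell in Bin-2 (7.41%). Of 49 genes at least 2 higher in Bin-2, 22 fell in Bin-2 (44.9%), 18 rose in 8093 (36.7%), 29 had a negative line difference and 0 a positive one. The other way, 8 rose in Bin-2 (16.3%) and 0 fell in 8093. At a gap of at least 3, 6 of 14 genes higher in 8093 fell there (42.9%). Of 16 genes at least 3 higher in Bin-2, 5 fell there (31.2%), a smaller share than at 2. In these starts Bin-2 minus 8093 was -3.97 for Eya1 and -2.90 for Jchain, and 3.76 for Cybb and 3.38 for Scin.

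The size of the gap in the nilotinib-course starts was set beside its size at the lonafarnib end, so the sizes come from different courses. Its median was 0.35 in those starts and 0.54 at that end in the 920 genes. In the 366 that differed at least 2-fold it was 0.81 and 0.77, and it was smaller at the lonafarnib end in 194 of them (53%). It was smaller there in 378 of the 920 (41.1%) and in 43.1% of all genes, where the median size was 0.15 and 0.19. Scd1, Nedd4 and S100a6 are examples of a gap that was wider at the lonafarnib end than at the lonafarnib start. At that end Bin-2 minus 8093 was -5.27, -3.89 and -3.33.

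**Figure D5:**
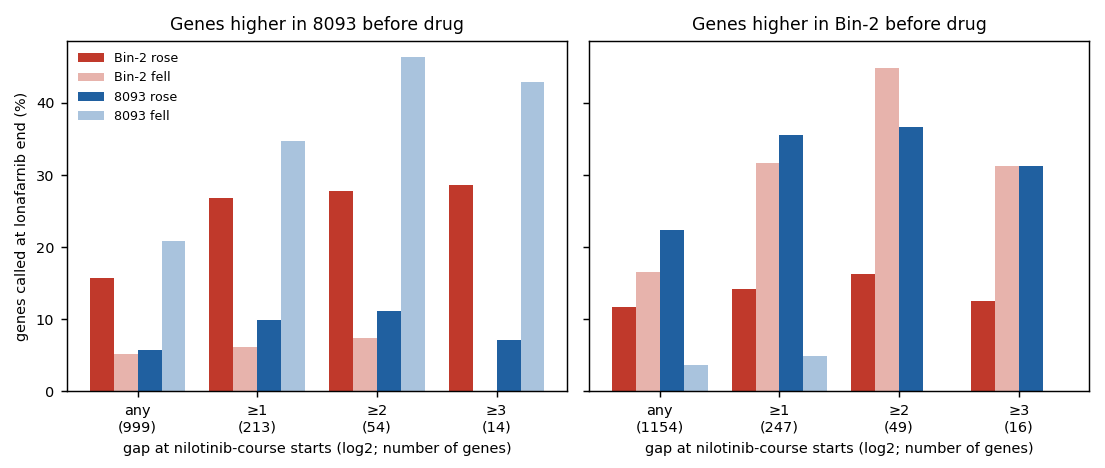
Share of genes called at the lonafarnib end in each line, in percent, among genes called higher in 8093 (left) or in Bin-2 (right) before drug, by the size of the gap in the nilotinib-course starts (log2; number of genes in parentheses). At a gap of at least 2, 46.3% of the genes higher in 8093 fell there and 44.9% of the genes higher in Bin-2 fell there.

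The same kind of difference under nilotinib, a BCR/ABL kinase inhibitor given to separate plates of the same lines, shares no arrays with the lonafarnib values. Nilotinib was given at 20 nM for 20 days to 8093, with 2 end arrays, and at 50 nM for 21 days to Bin-2. The line difference was positive in 3120 genes (15.6%) and negative in 2984 (15%), 30.6% in all. Of the 423 genes positive under lonafarnib, 189 (44.7%) were positive and 79 (18.7%) negative under nilotinib. Of the 497 negative ones, 189 (38.0%) were negative and 121 (24.3%) positive. Cpa3 differed by -3.90 ± 0.39 under nilotinib, where it rose in both lines, by 4.98 in Bin-2 and 8.89 in 8093. Rag1 differed by 4.81 ± 0.32, where 8093 fell by 4.68.

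Several named genes differed the other way or not at all under nilotinib. Dntt differed by 2.62 ± 0.27, since 8093 fell by 2.78, and Gimap4 by 3.56 ± 0.18, since 8093 fell by 4.08. Cdh17 differed by 1.76 ± 0.42, where Bin-2 fell by 2.12 and 8093 fell by 3.87. Gca differed by -0.35 ± 0.26 (adjusted p = 0.359) and Abcg2 by 0.37 ± 0.26 (adjusted p = 0.316), neither of them called.

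At the lonafarnib midpoint, on day 4 in 8093 and day 3 in Bin-2, 838 genes had a called line difference (4.20%), measured against the same starts. Cpa3 was at -6.09 at the midpoint beside -5.45 at the end, and Rag1 at 1.57 beside 1.93, all of them called. Gca was at 0.05, Eya1 at -0.07, Cdh17 at 0.25 and Nedd4 at 0.17 at the midpoint, none of them called there, beside 3.30, 2.96, -4.14 and -2.82 at the end. Jchain was at -1.17 at the midpoint, called in the negative direction, beside 2.37 at the end.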

How the data were processed

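The authors deposited a log2 signal for each probeset and array. That the scale is log2 was read from the values, which ran from 1.02 to 14.37. The submitters' processing notes name Partek, without a version, and for how background, scaling between arrays and probeset summary were done the method is not given in the sources used here. Arrays have no read depth, so their number limits the precision. The labels' design text and treatment protocol disagree on the unit of lonafarnib, mM and µM respectively; µM was used. The title numbers were used as replicate names; the second 8093 end array carries plate letter c.

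Of 35557 probesets, 21789 had 1 gene symbol, 1621 several and 12147 were not listed. The probeset of highest mean stood for each of 999 genes with more than 1, which gave 19938 genes. Limma 3.58.1 in R 4.3.3 fitted means of 12 groups over 34 arrays (lmFit and eBayes, 6.70 prior and 22 residual degrees of freedom). Two-sided moderated p-values were adjusted by Benjamini-Hochberg over all genes, and a gene was called below 0.05. Errors are standard errors of the fit. The method was tested on simulated data.

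Genes were named by a rule: the 14 largest called differences each way with a group mean of at least 6 and no overlap of the single end arrays between lines, leaving out predicted and small RNA genes and symbols of capitals and digits; up to 3 called members of each of 30 lists each way; and 29 fixed genes, of which 25 had a value. Further list members were named outside this rule after their values were seen. The members and lists were chosen with earlier results of these data known. Same-numbered start and end plates did not deviate together (r from -0.12 to 0.16), so they were not paired. Alternatives covered normalization, a filter on dim genes, the arrays fitted, the prior, array weights, the baseline, the probeset rule, pairing and each array left out; list counts without an 8093 end array were added after seeing the data. Figures were drawn with matplotlib 3.10.9. A description of farnesylation motifs in proteins was not analysed here. A called gene of the farnesylated protein list is not reported here.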

Additional observations from a re-analysis of the deposited data

Results flagged for a closer look

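The line difference itself is a test that the change differs between the lines, and it was past the threshold in 920 genes. The values below are the Bin-2 change minus the 8093 change of the genes named for their size. The Bin-2 change was above the 8093 change in Myzap (3.99), Gca (3.30), Vat1l (2.97), Eya1 (2.96), H2-Aa (2.76), Tgfb2 (2.72), Rnase12 (2.55), Klhl7 (2.47), Mpzl2 (2.41), Rragd (2.38), Jchain (2.37), Kirrel (2.31), Sertad4 (2.24) and Adgre1 (2.24). It was below the 8093 change in Cpa3 (-5.45), Cdh17 (-4.14), Muc13 (-3.87), Cybb (-3.84), Scd1 (-3.14), S100a6 (-3.03), Sh2d1b1 (-2.93), Timp3 (-2.87), Nedd4 (-2.82), Trim2 (-2.79), Trf (-2.71), Scin (-2.71), Kit (-2.70) and Thbs1 (-2.61).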

How the results depend on the processing

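Only 2 arrays stand for the 8093 end, and leaving out single arrays gave 566 to 922 called genes, 211 to 446 positive and 330 to 476 negative, where the lone 8093 end array left is assumed to vary like the other groups. Array weights gave 1412 calls, 717 of them positive, and a baseline of the starts of both courses gave 747 negative calls. Quantile normalization gave 907, with 42.8% positive against 46%. Same-numbered plates did not deviate together, and a replicate block by title number gave 701 calls (314 positive and 387 negative) and by plate letter 746 (332 and 414). Of 86 called genes that the naming rule gave, 60 were called under every alternative that gave a value. Under at least 1 of these blocks Adgre1, Ankrd37, Bmf, Cd5, Cox6c, Fth1, Ftl1, Gimap5, Lef1, Socs1, Spry1, Spry4, Xbp1 and Zap70 were not called. Fits to only the 11 or 17 arrays also lost Ankrd37, Cd5, Gimap5, Rasd1 and Xbp1, and the fit to 11 lost Gstm5, Socs1 and Spry1. Some counts over lists rose with other settings, to 3 prenylation, 3 cholesterol and 2 positive and 1 negative mitosis genes with array weights, and to 4 interferon-stimulated and 5 negative and 1 positive ERK feedback genes with both starts, while quantile normalization left 1 ERK feedback gene. The medians of the fibroblast, ABC transporter, DNA replication and ribosome biogenesis lists changed sign with at least 1 array left out. The sign turned in genes that were not called: Lyz2 (-2.27 to 0.48 over the arrays left out), Col1a1 (-0.10 to 0.10; 0.022 with quantile normalization and 0.046 with both starts), Fnta (-0.038 to 0.12; -0.022 with both starts), Fntb (-0.0021 to 0.25), Myc (-0.10 to 0.24; -0.013 with quantile normalization and -0.13 with both starts) and Bcl6 (-0.0059 to 0.32). The causes were not tested.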
